A study of Danio rerio with 17 samples.

Results

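Genes of the glutathione, thioredoxin and general antioxidant enzyme families were followed across midbrains of male zebrafish from 2 populations on 3 selenium diets. They were taken by gene symbol: every symbol on the array that starts with gst, prdx, txn, glrx, gcl, hmox or srxn, and the symbols of the superoxide dismutases, catalase, glutathione synthetase, glutathione reductase and NQO1. This rule gave 37 of 15648 genes. They were 11 glutathione S-transferases, 10 thioredoxins and thioredoxin-like proteins, 6 peroxiredoxins, 4 enzymes of glutathione synthesis and recycling, 2 glutaredoxins, SOD1 and SOD2, and the pair HMOX1 and NQO1. The rule reads symbols and no measured value, although it was chosen with earlier results of these data known. It also takes in proteins that are not themselves antioxidant enzymes, such as the spliceosome proteins txnl4a and TXNL4B, and GSTCD, which carries only a C-terminal domain of the transferase type. The genes cat, prdx2, srxn1 and those of the thioredoxin reductases were not analysed here. Glutathione peroxidases were outside the rule.

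Glutathione is a small thiol made from glutamate, cysteine and glycine by glutamate-cysteine ligase and glutathione synthetase. It is returned to its reduced form by glutathione reductase and joined to reactive compounds by the glutathione S-transferases. Thioredoxin, kept reduced by thioredoxin reductase, hands electrons to peroxiredoxins, which break down hydrogen peroxide. Selenium enters these systems through selenocysteine enzymes, among them thioredoxin reductases and many glutathione peroxidases, whereas the proteins described here generally contain none. In vertebrates the transcription factor NRF2 drives many of their genes, including those of both ligase subunits, NQO1 and heme oxygenase.

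The fish were adult males, 1 year old, of the population Pargana (8 fish) or Transgenic Mosaic 1 (9 fish). They ate for 10 weeks a diet with 0.46 ppm selenium (deficient), 1.7 ppm (control) or 3.1 ppm (supplemented), given as selenomethionine. There were 6 groups of 3 fish, with 2 in the Pargana control group. RNA of 1 midbrain was hybridised per array, and values are log2 array signals summarised per gene by the authors. All groups share sex, age and tissue, and the labels give no further detail of how the populations were derived. A difference in signal from whole midbrain can reflect fewer cells of a type or less RNA per cell, which cannot be told apart.

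The arrays were alike in overall level, with medians from 9.62 to 9.73 and single values from 3.48 to 15.49. The number of arrays limits the precision, and depth has no meaning for these intensities. Several markers of the labelled tissue gave high signals, with means of 14.64 for SNAP25 and 13.49 for ELAVL3, both of neurons, and 12.25 for OTX2 and 13.28 for PAX7, both of midbrain. The 11 midbrain markers ran from 9.45 (EN1) to 13.28 (PAX7), and the 8 forebrain markers from 5.19 (emx3) to 11.24 (DLX5). Genes of skeletal muscle, pituitary, eye, microglia and erythrocytes varied between arrays. A score for each of these lists (mean deviation of its genes from their mean over all arrays, log2 units) passed 0.9 on 5 arrays: both Pargana control arrays, Pargana supplemented 1 and 3, and Transgenic Mosaic 1 deficient 2. Forebrain markers scored 1.03 on a further array, Transgenic Mosaic 1 supplemented 3. The population differences that passed are given with and without the 5 arrays, and every Pargana comparison with the control diet rests on that pair of control arrays. In the sample descriptions, the code of Pargana deficient fish 3 carries another population letter than those of the other Pargana fish. It was kept in the Pargana group that its label names.

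The 37 genes were as variable as the array at large. Their within-group SD had a median of 0.23 on the log2 scale, and so did that of all genes. Population held a median of 16.5% of a member's variance, against 10.6% over all genes, and diet 6.83% against 8.54%. The remainder was mostly spread between fish of the same group, with a median of 58.5% against 61.9%. These are shares of sums of squares, with population entered before diet. Diet and interaction have more degrees of freedom than population and take a larger share by chance alone. Shares are therefore read against all genes and not between terms. The population share was highest in NQO1 (56.2%), gstt2 (48.7%) and gstk4 (45.3%), and the diet share in HMOX1 (41.9%). The share of the interaction of population and diet was highest in TXNDC17 (43.0%), GSTM3 (37.2%), GLRX5 (33.4%) and the TXNIP gene ENSDARG00000070000 (31.5%). How many of all genes reach such shares was not counted, and no member passed the interaction test given below. The narrowest range over the arrays, 0.47 log2 units, was that of prdx5, and the widest, 3.99, that of gstt2.

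**Figure D1:**
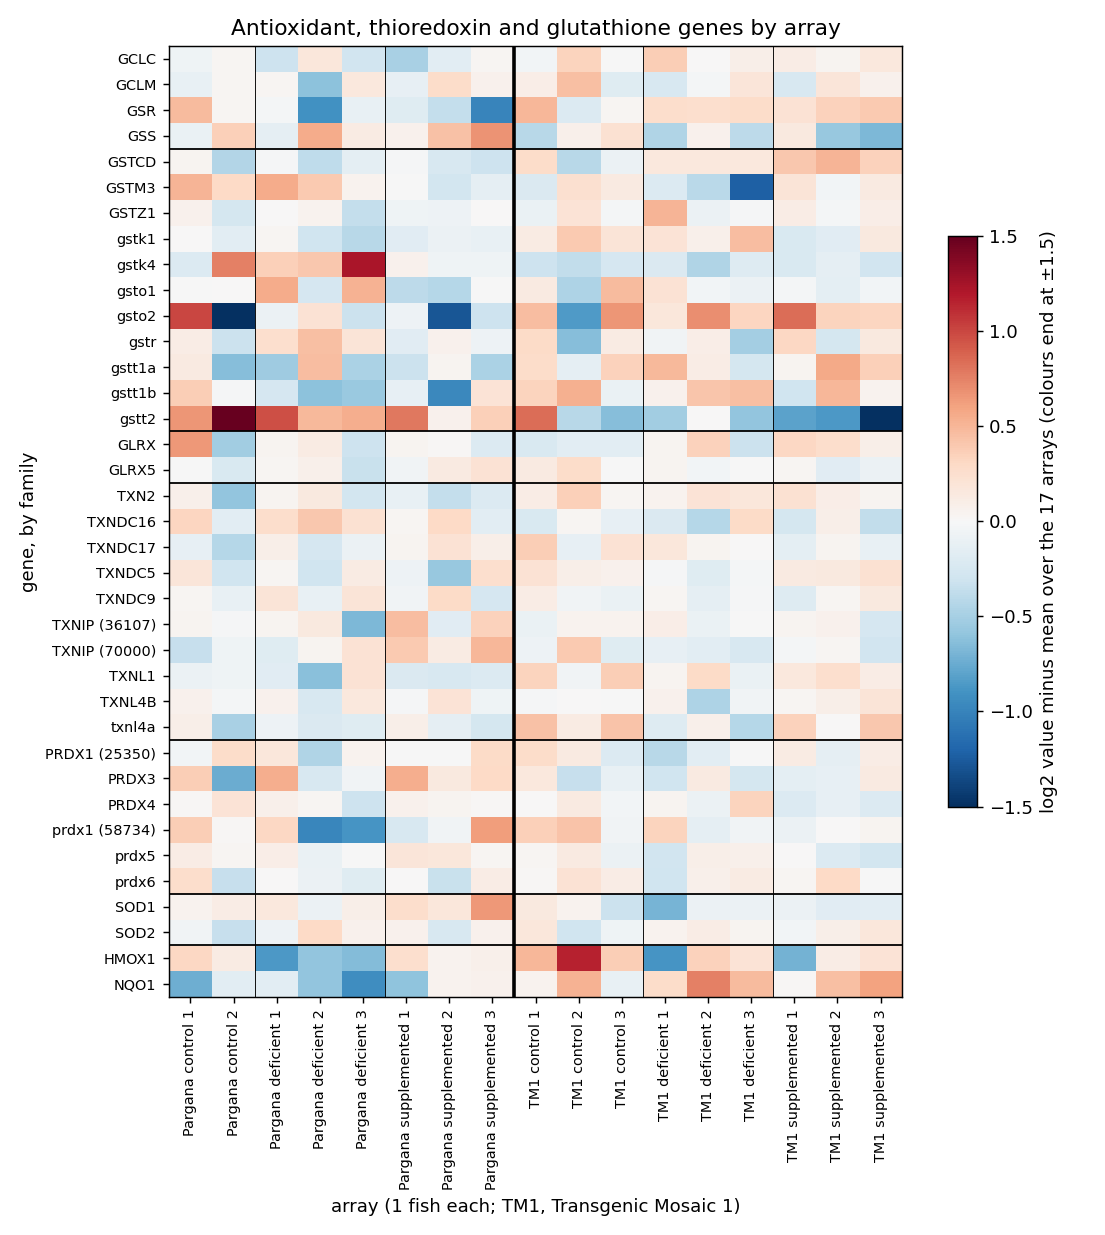
Deviation of each of the 37 genes (rows, grouped by family) from its own mean over the 17 arrays (columns, grouped by population and diet), in log2 units by colour, which ends at 1.5 either way. The widest deviations fall on gstt2, whose range is 3.99, and prdx5, whose range is 0.47, stays close to its mean on every array.

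The question that the design poses first is whether the populations differ in midbrain. In the population difference averaged over the 3 diets (Transgenic Mosaic 1 minus Pargana), 5 of the 37 genes passed an adjusted p of 0.05, which is 13.5%. Over all genes tested the share was 13.3%, so the members' count was that of the background. NQO1, GSTCD and TXN2 were higher in Transgenic Mosaic 1 (3 members, where 6.40% of all genes were higher), while gstt2 and gstk4 were lower (2 members, where 6.95% of all genes were lower). At an unadjusted p under 0.05 there were 16 members (43.2%), against 29.0% of all genes. Of the 37 differences, 22 lay above 0 and 15 below, with a median of 0.07 against -0.01 over all genes. The median size, sign ignored, was 0.17 for the members and 0.15 for all genes. In no member were the 2 populations fully separated over all arrays, which 1.94% of all genes were (303 genes). Separation within a single diet, or between diets, was not counted over all genes. It is given below as a description only, since groups this small often separate by chance. All p-values here are from limma with Benjamini-Hochberg adjustment over all 15648 genes.

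**Figure D2:**
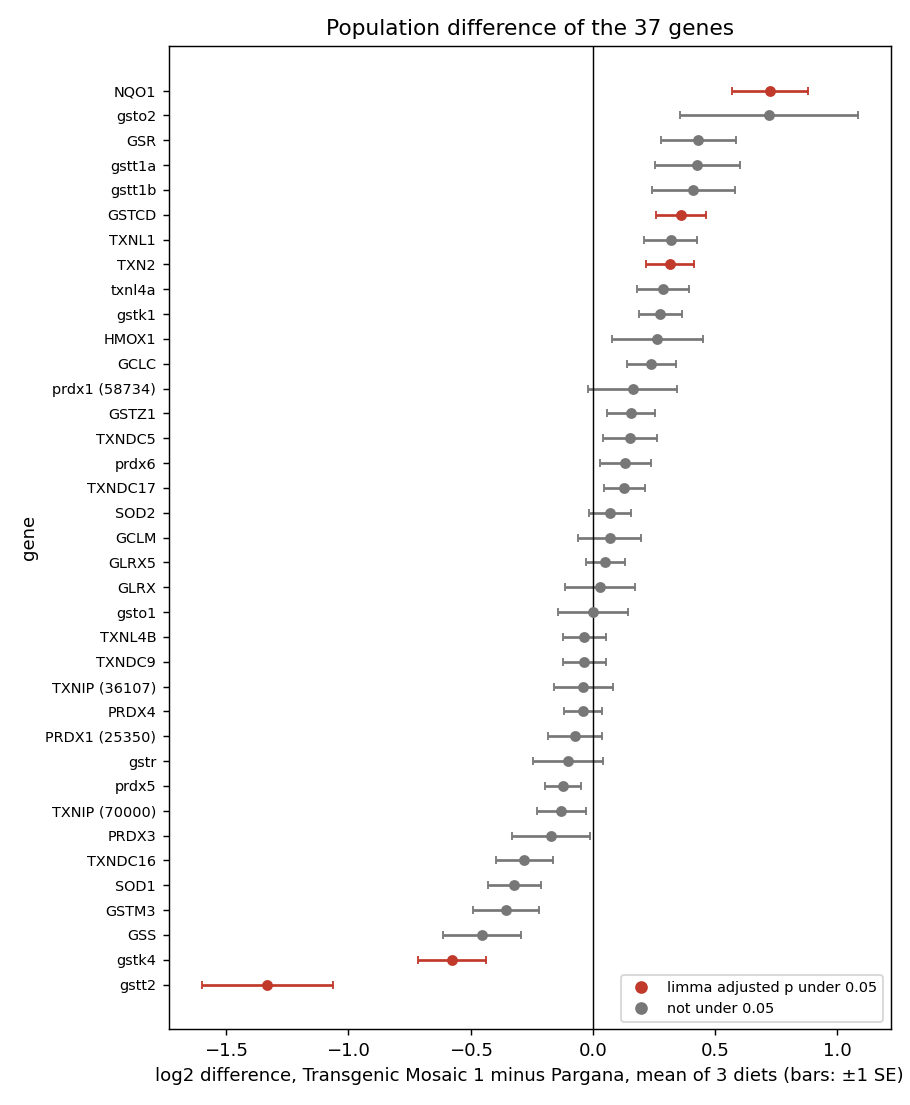
Population difference (Transgenic Mosaic 1 minus Pargana, averaged over the 3 diets, log2 units) of each of the 37 genes with bars of 1 standard error either way, ordered by size. The 5 genes past an adjusted p of 0.05 are red, from -1.33 for gstt2 to 0.72 for NQO1, and the peroxiredoxins all lie between -0.17 and 0.16.

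Among the enzymes that make and recycle glutathione, none of the 4 passed the test between populations, and their differences ran from -0.45 to 0.43. GCLC, the catalytic subunit of glutamate-cysteine ligase, differed by 0.24 (SE 0.10, adjusted p = 0.130, limma). GCLM, its modifier subunit, differed by 0.07 (SE 0.13, adjusted p = 0.775, limma). GSS, glutathione synthetase, and GSR, glutathione reductase, lay on opposite sides of 0.

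GSS read 8.63 and 9.09 in Pargana on the control diet, 8.60, 9.29 and 8.85 on the deficient diet, and 8.80, 9.17 and 9.41 on the supplemented diet. The Transgenic Mosaic 1 values were 8.32, 8.81 and 8.96 on the control, 8.28, 8.80 and 8.33 on the deficient, and 8.88, 8.17 and 8.06 on the supplemented diet. The populations overlapped, and the lowest values were those of Transgenic Mosaic 1 fish. The averaged difference was -0.45 (SE 0.16, adjusted p = 0.0732, limma), and that on the supplemented diet -0.76 (SE 0.26, adjusted p = 0.125, limma).

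GSR read 10.72 and 10.27 in Pargana control, 10.22, 9.34 and 10.14 in Pargana deficient, and 10.07, 9.89 and 9.26 in Pargana supplemented midbrains. The Transgenic Mosaic 1 values were 10.74, 10.04 and 10.28 on the control, 10.51, 10.49 and 10.52 on the deficient, and 10.47, 10.59 and 10.64 on the supplemented diet. On the deficient and on the supplemented diet every Transgenic Mosaic 1 fish was above every Pargana fish, and on the control diet they overlapped. The averaged difference was 0.43 (SE 0.15, adjusted p = 0.0754, limma), and that on the supplemented diet 0.83 (SE 0.25, adjusted p = 0.0842, limma). Neither passed. With the marker scores as covariates the values were -0.08 and 0.17. Without the 5 high-score arrays the averaged difference was 0.64 in a model of population plus diet (adjusted p = 0.0940, limma). The supplemented difference was then 0.68, with 1 Pargana fish left. With array weights the supplemented difference passed (0.89, adjusted p = 0.0244, limma), the lowest of alternatives that ran to 0.990.

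The glutathione S-transferases, 11 of the 37 members, held 3 of the 5 calls, where 13.3% of all genes were called. The family as a whole was not tested. It had the widest span of differences, from -1.33 to 0.72 with a median of 0.16. These enzymes attach glutathione to electrophiles, and the theta, omega, kappa and zeta classes differ in substrates and location in the cell. The theta class gene gstt2 had the largest difference among the members. It read 7.21 and 8.11 in Pargana control, 7.52, 7.04 and 7.10 in Pargana deficient, and 7.34, 6.61 and 6.92 in Pargana supplemented fish. Its signals in Transgenic Mosaic 1 were 7.40, 6.14 and 5.91 on the control, 6.03, 6.55 and 5.96 on the deficient, and 5.75, 5.69 and 4.12 on the supplemented diet. Apart from Transgenic Mosaic 1 control 1, at 7.40, all Transgenic Mosaic 1 values were below all Pargana values.

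The mean signal of gstt2 was 7.23 ± 0.45 (SD, n = 8) in Pargana and 5.95 ± 0.86 (SD, n = 9) in Transgenic Mosaic 1. It was 2.52-fold lower in the latter over the 3 diets (log2 difference -1.33, SE 0.27, adjusted p = 0.00569, limma). The call held in 17 of 17 fits that left out 1 array. On the supplemented diet alone gstt2 was 3.41-fold lower (log2 difference -1.77, SE 0.45, adjusted p = 0.0429, limma), the sole member called there, where 3.87% of all genes were called. That call was kept in 6 of the 17 omissions, all of control or deficient arrays, which leave the difference at -1.77. It was lost in every fit that left out a supplemented array, and in some that left out a deficient one. The differences without a supplemented array ran from -2.05 to -1.24, with adjusted p from 0.0526 to 0.156 (limma). The value of 4.12 in Transgenic Mosaic 1 supplemented 3, the array with the forebrain score of 1.03, is the lowest of gstt2 on the 17 arrays. It lies near the low end of all signals, and the deposited values carry no mark of which exceed background. Without Transgenic Mosaic 1 supplemented 3 the differences of gstt2 were -1.15 over the 3 diets (adjusted p = 0.00619, limma) and -1.24 on the supplemented diet (adjusted p = 0.156, limma). On the supplemented diet the difference was -0.74 with the marker scores as covariates (adjusted p = 0.979, limma) and -1.43 without the 5 high-score arrays, which leaves 1 Pargana fish, assumed to vary like the other groups (adjusted p = 0.372, limma; all alternatives ran from 0.0206). The other theta genes lay on the other side of 0 without passing, at 0.43 for gstt1a (SE 0.17, adjusted p = 0.120, limma) and 0.41 for gstt1b (SE 0.17, adjusted p = 0.121, limma).

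The kappa class gene gstk4 read 4.75 and 5.70 in Pargana control, 5.30, 5.35 and 6.18 in Pargana deficient, and 5.01, 4.89 and 4.89 in Pargana supplemented fish. All 9 Transgenic Mosaic 1 values lay between 4.50 and 4.81. Pargana control 1, at 4.75, was the sole Pargana fish inside that range. The means were 5.26 ± 0.49 (SD, n = 8) and 4.68 ± 0.10 (SD, n = 9), and the averaged difference was -0.58 (SE 0.14, 1.49-fold lower, adjusted p = 0.0157, limma). The call was lost without Pargana control 2 (-0.42, adjusted p = 0.0502, limma, where all alternatives ran from 0.00272 to 0.600). These signals lie near the low end of the arrays' range, and the deposited values carry no mark of which signals exceed background.

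Its neighbour gstk1, the next gene in the order of the GRCz12tu assembly, differed in the opposite direction without passing in the main fit. It ranged from 10.92 to 11.36 in Pargana, with a median of 11.20, and from 11.10 to 11.79 in Transgenic Mosaic 1, with a median of 11.48. The populations overlapped, and the averaged difference was 0.28 (SE 0.09, adjusted p = 0.0524, limma). In limma gstk1 passed after another quantile normalization (adjusted p = 0.0390) and with trended variance (adjusted p = 0.0376). It also passed with arrays centred on their medians and without the lowest quartile of mean value. It did not pass with the marker scores as covariates (adjusted p = 0.937, limma) or without the 5 high-score arrays (adjusted p = 0.237, limma). Another pair of neighbours, the omega class genes gsto1 and gsto2, differed by 0.00 (SE 0.14) and 0.72 (SE 0.36, adjusted p = 0.212, limma). The within-group SD of gsto2 was 0.83, and its 2 Pargana control fish read 7.87 and 4.75. Without the former of them, Pargana control 1, gsto2 differed by 1.24. That fit leaves the fish at 4.75, the lowest gsto2 value of all arrays, as the only Pargana control fish.

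GSTCD read 10.28 and 9.79 in Pargana control, 10.21, 9.85 and 10.09 in Pargana deficient, and 10.21, 10.00 and 9.93 in Pargana supplemented fish. In Transgenic Mosaic 1 it read 10.51, 9.82 and 10.15 on the control diet, 10.40 in all 3 fish on the deficient diet, and 10.64, 10.75 and 10.59 on the supplemented diet. The populations overlapped on the control diet and were separate on the other two. The means were 10.05 ± 0.18 (SD, n = 8) and 10.41 ± 0.28 (SD, n = 9), with an averaged difference of 0.36 (SE 0.10, 1.28-fold higher, adjusted p = 0.0330, limma). The call lay near the threshold: it was kept in 7 of the 17 omissions, with differences of 0.28 to 0.44 throughout. It was lost without any of Pargana control 2, deficient 2, supplemented 2 or 3, or Transgenic Mosaic 1 control 1 or 3, deficient 1 or 3, or supplemented 1 or 2.

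GSTM3, a mu class transferase, did not pass between populations (averaged difference -0.36, SE 0.13, adjusted p = 0.0966, limma). GSTZ1, the zeta class enzyme of tyrosine breakdown, differed by 0.16 (SE 0.10, adjusted p = 0.314, limma) and gstr by -0.10 (SE 0.14, adjusted p = 0.684, limma).

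Of the 10 thioredoxins and thioredoxin-like proteins 1 passed between populations. TXN2, the mitochondrial thioredoxin, read 11.22 and 10.55 in Pargana control, 11.18, 11.29 and 10.86 in Pargana deficient, and 11.03, 10.78 and 10.93 in Pargana supplemented fish. Its 9 Transgenic Mosaic 1 values lay between 11.17 and 11.50, narrower than the Pargana range of 10.55 to 11.29, whose upper end they overlap. The means were 10.98 ± 0.25 (SD, n = 8) and 11.29 ± 0.11 (SD, n = 9), with an averaged difference of 0.32 (SE 0.10, 1.24-fold higher, adjusted p = 0.0497, limma). The call was kept in 2 of the 17 omissions, without Pargana control 1 or Pargana deficient 2. It was lost in each of the others, and the difference was 0.21 without Pargana control 2 (adjusted p = 0.161, limma, where all alternatives ran from 0.00860 to 0.392).

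The other thioredoxin-like genes differed by -0.28 to 0.32. TXNL1, a thioredoxin-like subunit that binds the proteasome, differed by 0.32 (SE 0.11, adjusted p = 0.0671, limma), and the splicing protein gene txnl4a by 0.29 (SE 0.11, adjusted p = 0.0894, limma). Both genes named TXNIP, an inhibitor of thioredoxin, were close to 0, at -0.04 (SE 0.12) for ENSDARG00000036107 and -0.13 (SE 0.10) for ENSDARG00000070000. The glutaredoxins, which use glutathione to reduce protein disulfides, differed by 0.03 (GLRX, SE 0.14) and 0.05 (GLRX5, SE 0.08).

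None of the 6 peroxiredoxins passed between populations, and their differences lay between -0.17 and 0.16 with a median of -0.06. PRDX3, the mitochondrial form, differed by -0.17 (SE 0.16), and PRDX4, the form of the endoplasmic reticulum, by -0.04 (SE 0.08). For prdx5 the difference was -0.12 (SE 0.07), and for prdx6, which uses glutathione in place of thioredoxin, 0.13 (SE 0.10). The genes PRDX1 ENSDARG00000025350 and prdx1 ENSDARG00000058734 differed by -0.07 (SE 0.11) and 0.16 (SE 0.18). The smallest adjusted p in the family was 0.298, for prdx5 (limma).

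The superoxide dismutases turn superoxide into hydrogen peroxide. SOD1, the cytosolic enzyme, differed by -0.32 (SE 0.11, adjusted p = 0.0635, limma), and SOD2, the mitochondrial enzyme, by 0.07 (SE 0.09, adjusted p = 0.639, limma). In limma SOD1 passed after another quantile normalization (adjusted p = 0.0480) and in a model of population plus diet (adjusted p = 0.0461). It did not pass with the marker scores as covariates (adjusted p = 0.992, limma) or without the 5 high-score arrays (adjusted p = 0.159, limma). On the supplemented diet SOD1 read 11.05, 10.96 and 11.43 in Pargana against 10.70, 10.62 and 10.63 in Transgenic Mosaic 1. Those groups did not overlap, and the difference of -0.50 (SE 0.18) had an adjusted p of 0.137 (limma).

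NQO1, a quinone reductase that spares cells the radicals of partial quinone reduction, was the member most clearly higher in Transgenic Mosaic 1. It read 7.83 and 8.41 in Pargana control, 8.41, 7.97 and 7.63 in Pargana deficient, and 7.96, 8.61 and 8.63 in Pargana supplemented fish. Signals in Transgenic Mosaic 1 were 8.61, 9.09 and 8.45 on the control, 8.84, 9.31 and 9.04 on the deficient, and 8.58, 9.01 and 9.16 on the supplemented diet. The populations were separate on the control and deficient diets and overlapped on the supplemented diet. The means were 8.18 ± 0.38 (SD, n = 8) and 8.90 ± 0.30 (SD, n = 9), a 1.65-fold difference over the 3 diets (log2 difference 0.72, SE 0.16, adjusted p = 0.00811, limma), called in 17 of 17 omissions. HMOX1, the inducible heme oxygenase that degrades heme, differed by 0.26 (SE 0.19, adjusted p = 0.378, limma).

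**Figure D3:**
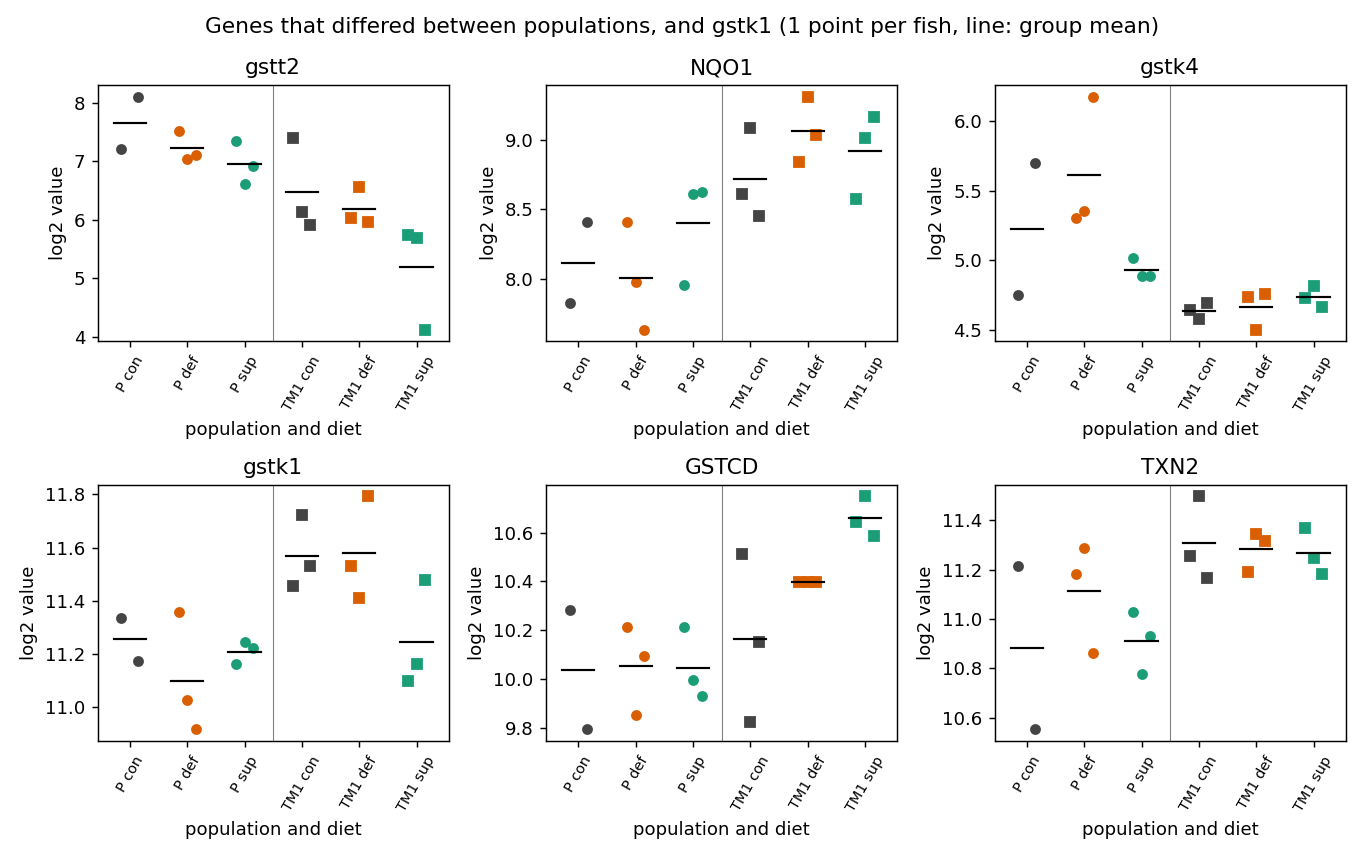
Log2 signals (vertical axes) of gstt2, NQO1, gstk4, gstk1, GSTCD and TXN2, with 1 point per fish, groups of population (P, Pargana; TM1, Transgenic Mosaic 1) and diet (control, deficient, supplemented) side by side, and lines for group means. The gstt2 signals of Transgenic Mosaic 1 lie below those of Pargana except for 1 control fish at 7.40, and those of NQO1 lie above Pargana on the control and deficient diets.

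Marker scores of other tissues ran at different ranges in the populations. The muscle score ran from -0.13 to 1.40 in Pargana and from -0.70 to -0.04 in Transgenic Mosaic 1, and 6 of its 15 genes were lower in the latter by the same test. The pituitary score ran from -0.49 to 2.40 against -0.75 to -0.23, with 3 of 9 genes lower; Pargana control 2 and supplemented 3 held its values of 2.40 and 2.37, and the next highest was 0.61. These counts stand beside 6.95% of all genes lower. The erythrocyte score ran from -0.05 to 0.36 against -0.34 to 0.05, with 0 of 8 called and 2 at an unadjusted p under 0.05 (limma). With the 5 scores as covariates no member and 10 genes in all were called; gstt2 differed by -0.74 (adjusted p = 0.903, the highest of alternatives that ran from 0.00241) and NQO1 by 0.46 (adjusted p = 0.824, the highest of a range from 0.00597). GSTCD differed by 0.31, TXN2 by 0.59 and gstk4 by -0.57 in that limma fit. The fit spends 5 of the 11 residual degrees of freedom on scores, some of which differ between the populations. A call lost there cannot tell whether a difference follows tissue content, which was not tested. Without the 5 arrays of high score, in a model of population plus diet, gstt2 differed by -1.31 (adjusted p = 0.0809), NQO1 by 0.69 (adjusted p = 0.0950) and gstk4 by -0.59 (adjusted p = 0.116). GSTCD differed by 0.47 (adjusted p = 0.104) and TXN2 by 0.27 (adjusted p = 0.261). In that fit 779 genes passed, and the sole member among them was gstt1b (0.85, adjusted p = 0.0356, limma). With the array of high forebrain score left out as well, an alternative chosen after seeing the data, no member passed and gstt2 differed by -1.11 (adjusted p = 0.0706, limma).

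Within single diets the population comparison holds 2 or 3 fish a side. On the control diet 0 of 37 members passed, where 0.952% of all genes were called, and 5 members had an unadjusted p under 0.05 (12.4% of all genes). The smallest p there was that of TXNDC17, a thioredoxin-like protein of the cytosol, with a difference of 0.42 (SE 0.16, adjusted p = 0.274, limma), or 0.27 without Pargana control 2. On the deficient diet 0 of 37 passed against 1.44% of all genes, with 8 at an unadjusted p under 0.05 (14.3% of all genes). Adjusted p came closest to the threshold for GSTM3 (-0.94, SE 0.22, 0.0551), NQO1 (1.06, SE 0.26, 0.0636) and gstk4 (-0.95, SE 0.23, 0.0641) in limma. Pargana deficient 3, whose code carries another population letter, held the lowest NQO1 and the highest gstk4 value of all arrays. Without this fish the deficient-diet differences were 0.87 for NQO1 and -0.67 for gstk4. Over the 3 diets both stayed called without it, at 0.66 (adjusted p = 0.0157, limma) and -0.48 (adjusted p = 0.0168, limma). The supplemented diet had the call of gstt2, 9 members at an unadjusted p under 0.05 (20.0% of all genes), and GSTCD next in order (0.61, SE 0.17, adjusted p = 0.0618, limma).

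The second question of the design is whether dietary selenium moves these genes. None of the 37 passed in any of the 9 comparisons between diets, and few genes of the whole array did. In Pargana the background was 0.0383% for deficient against control, 0.0320% for supplemented against control and 0% for supplemented against deficient. In Transgenic Mosaic 1 it was 0.0256%, 0.0831% and 0.00639% in the same order, and over both populations 0.0320%, 0.0447% and 0%. Members with an unadjusted p under 0.05 numbered 1, 4 and 3 in Pargana, where all genes gave 7.05%, 6.01% and 6.51%. They numbered 3, 4 and 4 in Transgenic Mosaic 1 (all genes 4.67%, 5.76% and 3.34%) and 2, 1 and 0 over both populations (all genes 6.94%, 5.38% and 4.30%). Comparisons against a diet share that diet's fish.

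**Figure D4:**
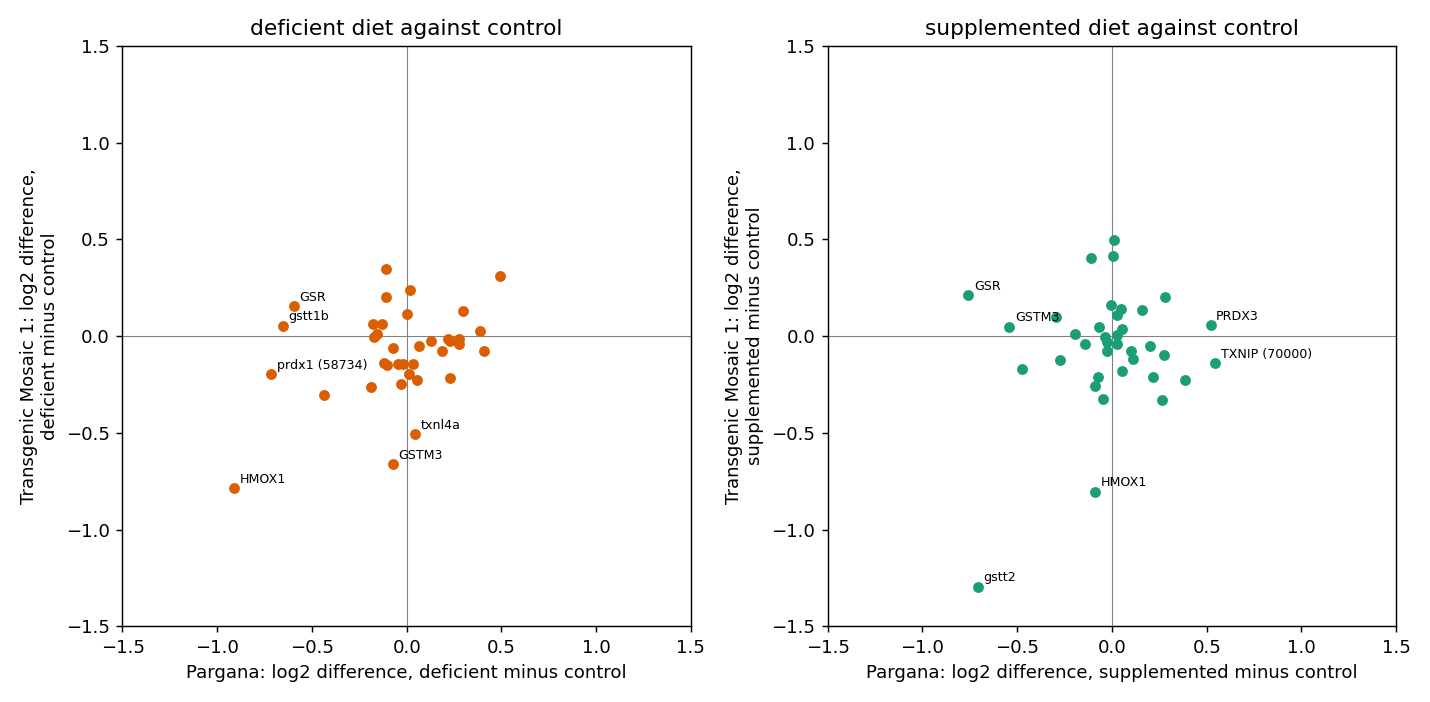
Differences of the deficient (left) and the supplemented (right) diet from the control diet, in log2 units, in Pargana (horizontal axes) and in Transgenic Mosaic 1 (vertical axes), with 1 point per gene. None of the 37 genes passed an adjusted p of 0.05 on either axis, and the points farthest below 0 are gstt2 (-1.30 in Transgenic Mosaic 1, supplemented) and HMOX1 (-0.91 in Pargana, deficient).

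HMOX1 had the smallest p of any member between diets. It read 7.51 and 7.33 in Pargana control, 6.35, 6.62 and 6.56 in Pargana deficient, and 7.46, 7.26 and 7.28 in Pargana supplemented fish. All 3 Pargana deficient fish were below all other Pargana fish. In Transgenic Mosaic 1 it read 7.71, 8.36 and 7.57 on the control, 6.32, 7.55 and 7.41 on the deficient, and 6.50, 7.32 and 7.41 on the supplemented diet. There the 3 control fish were above all others, and the deficient and supplemented fish overlapped.

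Deficient minus control over both populations was -0.85 for HMOX1 (SE 0.23, unadjusted p = 0.00254, adjusted p = 0.630, limma). Within the populations it was -0.91 (SE 0.34) in Pargana and -0.79 (SE 0.31) in Transgenic Mosaic 1. Supplemented minus control was -0.09 in Pargana and -0.80 (SE 0.31, adjusted p = 0.721, limma) in Transgenic Mosaic 1. None of these passed the test over all genes.

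GSTM3 read 11.62, 12.08 and 11.97 in Transgenic Mosaic 1 control, 11.64, 11.43 and 10.62 in deficient, and 12.03, 11.80 and 11.98 in supplemented fish. The Pargana values were 12.35 and 12.14 on the control, 12.40, 12.23 and 11.89 on the deficient, and 11.84, 11.57 and 11.71 on the supplemented diet. The low group was thus the deficient one in Transgenic Mosaic 1, whose upper end overlaps the control fish, and the supplemented one in Pargana, which overlaps neither other Pargana diet. Supplemented minus deficient was 0.71 in Transgenic Mosaic 1 (SE 0.22, adjusted p = 1.00, limma), and supplemented minus control was -0.54 in Pargana (SE 0.25, adjusted p = 0.829, limma). Without Transgenic Mosaic 1 deficient 3, the fish at 10.62, the former value for GSTM3 was 0.40. The interaction of population and diet had an unadjusted p of 0.00838 and an adjusted p of 0.689 (limma).

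In that interaction test 0 of 37 members passed, against 0.0383% of all genes, and 3 had an unadjusted p under 0.05 where all genes gave 5.63%. Besides GSTM3 these were TXNDC17 and TXNIP ENSDARG00000070000. TXNDC17 read 11.86 and 11.56 in Pargana control, 12.08, 11.74 and 11.89 in Pargana deficient, and 12.02, 12.20 and 12.07 in Pargana supplemented fish. Its Transgenic Mosaic 1 values were 12.35, 11.86 and 12.20 on the control, 12.16, 12.02 and 11.99 on the deficient, and 11.83, 12.02 and 11.87 on the supplemented diet. The supplemented fish were above the control fish in Pargana, and in Transgenic Mosaic 1 the groups overlapped (interaction adjusted p = 0.868, limma). The TXNIP gene read 4.43 and 4.71 in Pargana control against 5.17, 4.89 and 5.28 in Pargana supplemented fish, a difference of 0.55 (SE 0.19, adjusted p = 0.606, limma) at signals near the low end of the arrays. Pargana deficient fish read 4.59, 4.82 and 4.99. Its Transgenic Mosaic 1 values were 4.70, 5.17 and 4.59 on the control, 4.65, 4.62 and 4.53 on the deficient, and 4.74, 4.80 and 4.48 on the supplemented diet. Those groups overlapped, and the highest value was that of control 2, at 5.17.

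Among the transferases, gstt2 was lower on the supplemented than on the control diet by values that did not pass, -1.30 in Transgenic Mosaic 1 (SE 0.45, adjusted p = 0.637, limma) and -1.001 over both populations (SE 0.33, adjusted p = 0.714, limma). GSTCD differed by 0.50 between the same diets in Transgenic Mosaic 1 (SE 0.17, adjusted p = 0.635, limma), or 0.33 without control 2. For gstk4, Pargana supplemented minus deficient was -0.68 (SE 0.23, adjusted p = 0.656, limma), or -0.40 without deficient 3. The Pargana supplemented fish for GSR lay below both control fish, at -0.76 (SE 0.28, adjusted p = 0.694, limma). Thioredoxin-like genes in Transgenic Mosaic 1 had deficient-minus-control values below 0 in 10 of 10 cases, from -0.51 to -0.01 with a median of -0.11 (all genes -0.03). In that comparison 25 of the 37 members lay below 0, and the share of all genes below 0 was not counted. In Pargana 3 of 10 thioredoxin-like genes were below 0. None of them passed. These genes were measured in the same fish, and a shift of the family as a whole was not tested. Signs were counted for every family in each comparison but the interaction, and other families were one-sided in places too. Peroxiredoxins lay above 0 in 6 of 6 cases in Pargana supplemented minus deficient, with 0 called.

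**Figure D5:**
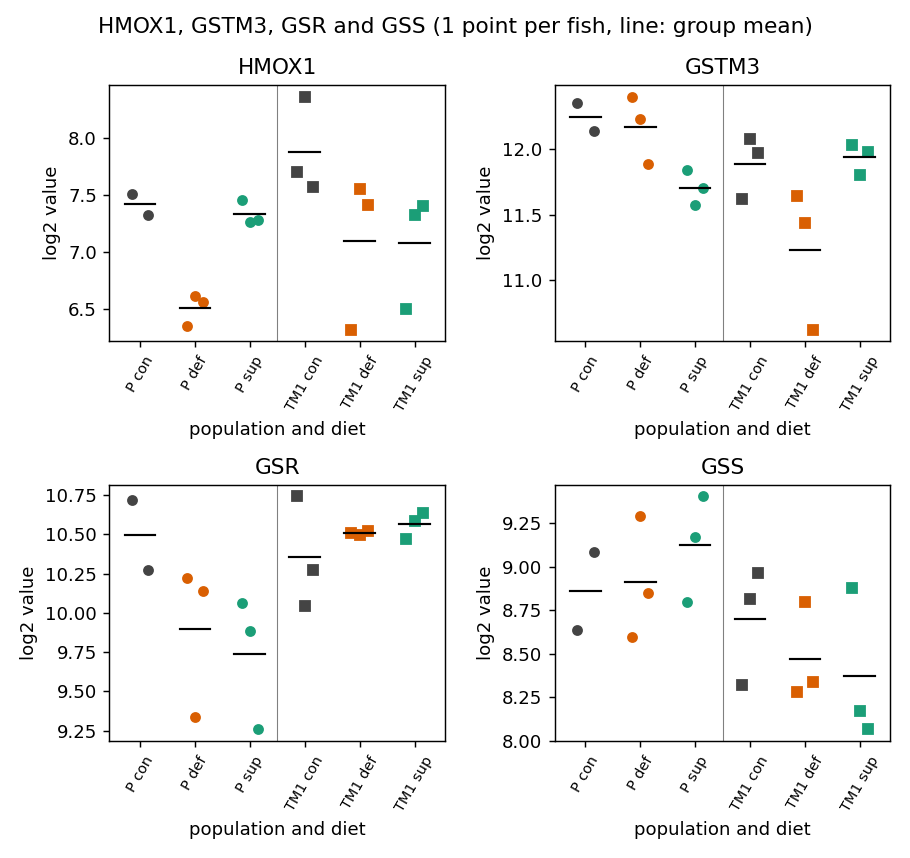
Log2 signals (vertical axes) of HMOX1, GSTM3, GSR and GSS by population (P, Pargana; TM1, Transgenic Mosaic 1) and diet, with 1 point per fish and lines for group means. The HMOX1 signals of the 3 Pargana deficient fish, 6.35 to 6.62, lie below the other Pargana fish, and those of the 3 Transgenic Mosaic 1 control fish, 7.57 to 8.36, lie above the rest of their population.

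Related pathways were examined through 5 gene lists with 81 measured genes, none of them a member. Between populations 10 of the 81 passed (12.3%, background 13.3%), 7 higher and 3 lower in Transgenic Mosaic 1. Of 9 genes of NRF2 regulation none passed, with 0.08 (SE 0.08) for NFE2L2, which encodes NRF2, and 0.19 (SE 0.13) for keap1a, its inhibitor; maff had the smallest adjusted p (0.0744, limma). In NADPH supply 2 of 12 passed: ME1, a cytosolic malic enzyme, differed by -1.72 (SE 0.36, adjusted p = 0.00695, limma) and ME3, a mitochondrial one, by 0.41 (adjusted p = 0.0290, limma). ME1 signals were 8.90 ± 1.04 (SD, n = 8) in Pargana and 7.11 ± 0.50 (SD, n = 9) in Transgenic Mosaic 1.

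Cysteine and glutathione turnover had 2 of 19 genes called, the gamma-glutamyltransferase ggt1a (0.50, SE 0.10, adjusted p = 0.00446, limma) and the aminopeptidase LAP3 (0.26, SE 0.08, adjusted p = 0.0456, limma). The related gene ggt1b did not pass, at -0.01 (SE 0.24). In other detoxification 5 of 23 passed. MGST2, a microsomal glutathione transferase, was higher in Transgenic Mosaic 1, at 9.51 ± 0.27 (SD, n = 9) against 8.77 ± 0.32 (SD, n = 8), with a difference of 0.77 (SE 0.10, adjusted p = 3.23e-04, limma). PTGES, a prostaglandin synthase of the same membrane protein superfamily, differed by 0.86 (SE 0.14, adjusted p = 0.00150, limma), and cbr1l, named for carbonyl reductase, by 0.53 (SE 0.12, adjusted p = 0.0116, limma). FTH1, a heavy chain of the iron store ferritin, was lower by -0.66 (SE 0.10, adjusted p = 8.96e-04, limma), and UGT1A1, a glucuronosyltransferase, by -0.53 (SE 0.17, adjusted p = 0.0486, limma). The related ferritin genes fth1a (-0.08, SE 0.08) and fthl27 (-0.05, SE 0.20) did not pass. Mean signals of ggt1a (4.93 in Pargana, 5.46 in Transgenic Mosaic 1) and UGT1A1 (5.45 and 4.88) lie near the low end of the arrays' range.

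Of 18 genes of other peroxide and sulfoxide defence 1 passed, the ubiquinone reductase gene AIFM2 (0.27, SE 0.08, adjusted p = 0.0345, limma). None of the 81 passed in a diet comparison or in the interaction. The calls of ME1, ggt1a, MGST2, FTH1, PTGES and cbr1l were kept in 17 of 17 omissions of 1 array, that of ME3 in 9, those of LAP3 and AIFM2 in 4 each, and that of UGT1A1 in 3, without Pargana control 1, deficient 3 or supplemented 2. With the marker scores as covariates none of the 10 was called. In that fit FTH1 differed by -0.17, cbr1l by 0.05, ME3 by 0.21 and UGT1A1 by -0.30, while MGST2 differed by 0.81, ggt1a by 0.68, ME1 by -1.72, PTGES by 0.60, LAP3 by 0.22 and AIFM2 by 0.23. Without the 5 high-score arrays ME1 (-2.38, adjusted p = 0.00878), MGST2 (0.91, adjusted p = 0.0235) and PTGES (0.90, adjusted p = 0.0487) passed in limma. The others did not pass there, with 0.59 for ggt1a, 0.53 for ME3, 0.47 for cbr1l, 0.40 for LAP3, 0.28 for AIFM2, -0.43 for FTH1 and -0.68 for UGT1A1.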

How the data were processed

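Per the labels, total RNA of single midbrains was extracted with Trizol, primed with random hexamers for double-stranded cDNA, and measured after Cy3 labelling on 1-colour NimbleGen arrays. The deposited log2 values, 1 per Ensembl gene and array, were made by RMA with the Zv9 build per the submitters' processing notes, and versions are not given in the sources used here. The labels name no slide or scan. The values were used as deposited. Of 15649 features 1 names no gene and was left out.

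Means of the 6 groups were fitted over the 17 arrays in limma 3.58.1 (R 4.3.3; 11 residual and 2.84 prior degrees of freedom), with an adjusted p under 0.05 as the threshold in 14 comparisons. Residual spread is that between fish. The code was tested on simulated data. The members and lists were chosen with earlier results of these data known. List genes were matched by symbol, with a final a or b dropped where needed, a rule settled with the annotation in view (191 features for 270 entries).

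Genes were named if called, if their unadjusted p in a diet or single-diet comparison was under 0.01 or the smallest, if they were the best known of a family, or if their level or range was extreme. Called list genes were also named. Symbols of 33 of the 37 members matched RefSeq, whose GRCz12tu table gave neighbours; no coordinates were used. Figures used Python 3.11.15 and matplotlib 3.10.9.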

Additional observations from a re-analysis of the deposited data

Results flagged for a closer look

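In 8 of 74 sets (a member in 1 population) 1 fish stood far from the others by Dixon's test. Chance gives this in about 1 set in 20 where all fish of a set are treated alike. The sets here pool 3 diets and share the same fish, so their count cannot be read against that rate. GCLM read 8.80 in deficient 2 (nearest other fish 9.29), PRDX1 ENSDARG00000025350 read 11.76 in the same fish (nearest 12.17), and PRDX4 read 12.46 in deficient 3 (nearest 12.78). In Transgenic Mosaic 1, GSTZ1 was high at 6.32 in deficient 1 (nearest 6.005), TXNL4B low at 10.12 in deficient 2 (nearest 10.54) and GSTM3 low at 10.62 in deficient 3 (nearest 11.43). Transgenic Mosaic 1 control 2 was low for gsto2, at 6.01 (nearest 7.04), and high for TXNIP ENSDARG00000070000, at 5.17 (nearest 4.80). Without Transgenic Mosaic 1 deficient 3, the GSTM3 difference between populations on the deficient diet was -0.64 in place of -0.94, and supplemented minus deficient in Transgenic Mosaic 1 was 0.40 in place of 0.71. No member passed the interaction test of population and diet. With 2 or 3 fish a group, that does not show that diet effects were the same in both populations.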

How the results depend on the processing

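Of 873 recomputed values of 33 gene and comparison pairs, 721 kept direction and side of the threshold, 135 lost the call, 17 gained one and 0 changed direction. A difference between 2 groups cannot move when an array of another group is left out, and the interaction pair has no direction. The pairs were also named by their p in these data, so these counts are a description and no measure of stability. Outside those pairs, the difference over the 3 diets changed sign with the marker scores for GSR (-0.08), GCLM (-0.15), TXNDC17 (-0.03), PRDX4 (0.00), TXNIP ENSDARG00000036107 (0.53) and TXNIP ENSDARG00000070000 (0.34). Members called between populations over the 3 diets, 5 in the report, numbered 0 with the marker scores as covariates, 1 without the 5 high-score arrays, 0 without the array of high forebrain score as well, and 2 to 7 in the fits that left out 1 array (2 without Pargana control 2). They numbered 6 after another quantile normalization, with centred arrays, with trended variance or with array weights. There were 7 in a model of population plus diet, 5 with robust variance moderation and 4 without the lowest quartile of mean value. Members gained in some of these fits were gstk1, SOD1, TXNL1 and GSS, and gstt1b without the 5 high-score arrays. The members gsto2, txnl4a, gstt1a and TXNDC16 were gained only in fits that left out 1 array. On the deficient diet, 0 in the report, there was 1 with arrays centred on their medians, 1 without the lowest quartile of mean value, 1 with trended variance, 3 with array weights and 0 to 1 in the omissions. On the supplemented diet, 1 in the report, there were 0 after another quantile normalization, 2 with centred arrays, 0 without the lowest quartile (which drops gstt2 and gstk4), 4 with array weights, 0 with that diet or its 2 groups alone, 0 with the marker scores, 0 without the 5 arrays (chosen after seeing the data) and 0 to 2 in the omissions. The cause was not tested. Between diets and in the interaction 0 members were called under every alternative run. Leaving out 1 array gave 3 to 198 calls among all genes for Pargana deficient against control and 2 to 162 for supplemented against control. No paired analysis was possible because the labels give no replicate number shared between groups. Signals near the low end carry no detection call. They include those of gstk4, TXNIP ENSDARG00000070000, ggt1a and UGT1A1, and the gstt2 value of 4.12 in Transgenic Mosaic 1 supplemented 3.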

Other observations

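The marker lists not yet counted were compared between the populations averaged over the 3 diets, where 13.3% of all genes were called and 29.0% had an unadjusted p under 0.05. By the limma test, 3 of 11 midbrain markers were called (2 higher and 1 lower in Transgenic Mosaic 1), 2 of 6 oligodendrocyte markers (both higher), 1 of 5 markers of radial glia and astroglia (higher), and 1 of 7 liver markers (lower). Of the eye and pineal genes 3 of 16 were called, 1 higher and 2 lower. None of 12 neuron, 8 forebrain, 4 endothelium and 9 microglia and macrophage markers was called, with 1, 3, 0 and 1 of them at an unadjusted p under 0.05.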
